A study of Solanum lycopersicum with 15 samples.

Results

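In tomato (Solanum lycopersicum) roots, 206 of 34075 genes stood highest in control roots, which had neither iron nor nitrogen, and were lower in every library of roots given iron back, with or without a nitrogen source. They were chosen by their measured values. Expression was read as FPKM (sequenced fragments per kilobase of a transcript, relative to all fragments that mapped), and a gene was kept if its mean reached 5 FPKM in at least 1 of the 5 nutrient regimes, which left 13750 genes. The 5 regime means of log2(FPKM + 1) were sorted. A member had its control mean alone above the largest step in that order, the step (called the gap here) was at least 1.5-fold on this scale, and the lowest control library exceeded the highest of the 12 libraries with iron. Each condition uses control against iron, so the distance from control is given below as a description, with no test.

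Polyadenylated RNA was sequenced from whole roots with 3 libraries per regime and 15 in all. The 4 regimes with iron were iron with nitrate, iron with ammonium, iron with urea and iron alone, the last without nitrogen, and the control had no iron and no nitrogen. No regime had nitrogen without iron, and in the 3 regimes with a nitrogen form iron and nitrogen were added together. Cultivar, plant age and length of resupply are not in the labels. Nor is it stated there that replicates are separate plants, so a p-value here measures the spread between these libraries, which may be technical.

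Roots of tomato, like those of other plants outside the grasses, take up iron by reducing ferric iron at the root surface and carrying the ferrous form across the plasma membrane, while proton pumps acidify the soil around them. Basic helix-loop-helix transcription factors, among them FER of tomato, switch these steps on when iron is short, together with genes for chelators, for metal transport within the plant and for secreted phenolics. When iron returns, such genes are typically turned down, and nitrate, ammonium and urea each have their own uptake and assimilation routes. The deposited table pairs no identifier with a gene name or product, so the members are given by identifier, none could be assigned to these steps, and their sequences were not analysed here. The marker genes of root and leaf tissue could not be matched for the same reason, so the tissue label was not checked. In whole roots, less RNA per cell and fewer cells of a type cannot be told apart.

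Libraries had FPKM sums of 546848 to 589451, with 17357 to 18082 genes at 1 FPKM or more. Without read counts the depth is unknown and counting error cannot be given. One library stood apart within its regime for these genes. Replicate 3 of iron alone was the highest of the 12 iron libraries in 97 of the 206 members (47.1%) and the lowest in 0, and it was the highest in 15.0% of the other kept genes. The results that rest on iron alone are therefore given with and without it.

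The conditions narrowed the table as follows. Of the 13750 kept genes, 3454 had their highest mean in control. In 730 genes (5.31%) all 3 control libraries lay above all 12 libraries with iron, and in 490 (3.56%) all 3 lay below. The largest step of the sorted means fell directly under control in 503 of the 730, and the gap reached the threshold in 206, which is 1.5% of the kept genes. A pair of identifiers set aside by the rule was present in the table, and 0 of them met its conditions.

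The median level of the members was 9.78, 8.31 and 9.93 FPKM in the libraries with nitrate, 7.95, 8.20 and 9.74 FPKM with ammonium, 8.56, 9.35 and 10.2 FPKM with urea, 9.74, 9.74 and 14.9 FPKM with iron alone, and 22.3, 30.6 and 26.4 FPKM in control. The lowest control library was above the highest library with iron, as the choice of members requires of each gene. Among the libraries with iron, replicate 3 of iron alone was the highest and the others lay within a range of 7.95 to 10.2 FPKM. The members made up 0.664 ± 0.0695% of the FPKM sum with nitrate, 0.634 ± 0.0544% with ammonium, 0.644 ± 0.0805% with urea, 0.773 ± 0.137% with iron alone and 1.71 ± 0.185% in control (SD, n = 3 each).

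**Figure D1:**
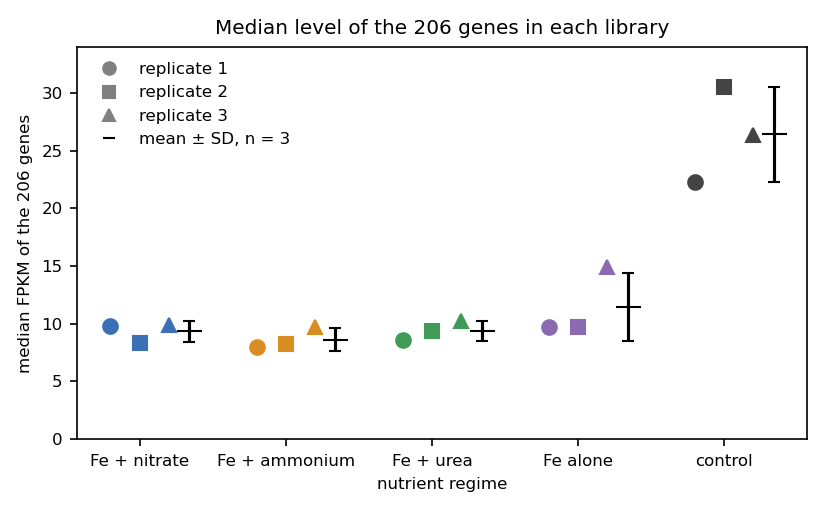
Median FPKM of the 206 genes (vertical axis) in each library, by nutrient regime (horizontal axis, Fe for iron); symbols mark the replicates and bars the mean ± SD of 3 libraries. Values with iron lie between 7.95 and 14.9 FPKM, the highest being replicate 3 of iron alone, and control libraries lie between 22.3 and 30.6 FPKM.

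The median difference from control was -1.21 with nitrate, -1.28 with ammonium, -1.37 with urea and -0.97 with iron alone, all on the log2(FPKM + 1) scale, which understates the change of low genes. Without replicate 3 of iron alone, the last of these medians was -1.10. The gap between control and the nearest regime with iron had a median of 0.87 over the members, with quartiles at 0.68 and 1.15, and reached 3.15. It was at least 1, a 2-fold step on this scale, in 75 members and at least 2 in 10. Control levels spanned a wide range, with means between 5.26 and 634.7 FPKM and a median of 28.2 FPKM. In 20 members the control mean was 100 FPKM or more, and in 38 it was under 10 FPKM. A library was listed at 0 in 6 members, and no control library was.

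**Figure D2:**
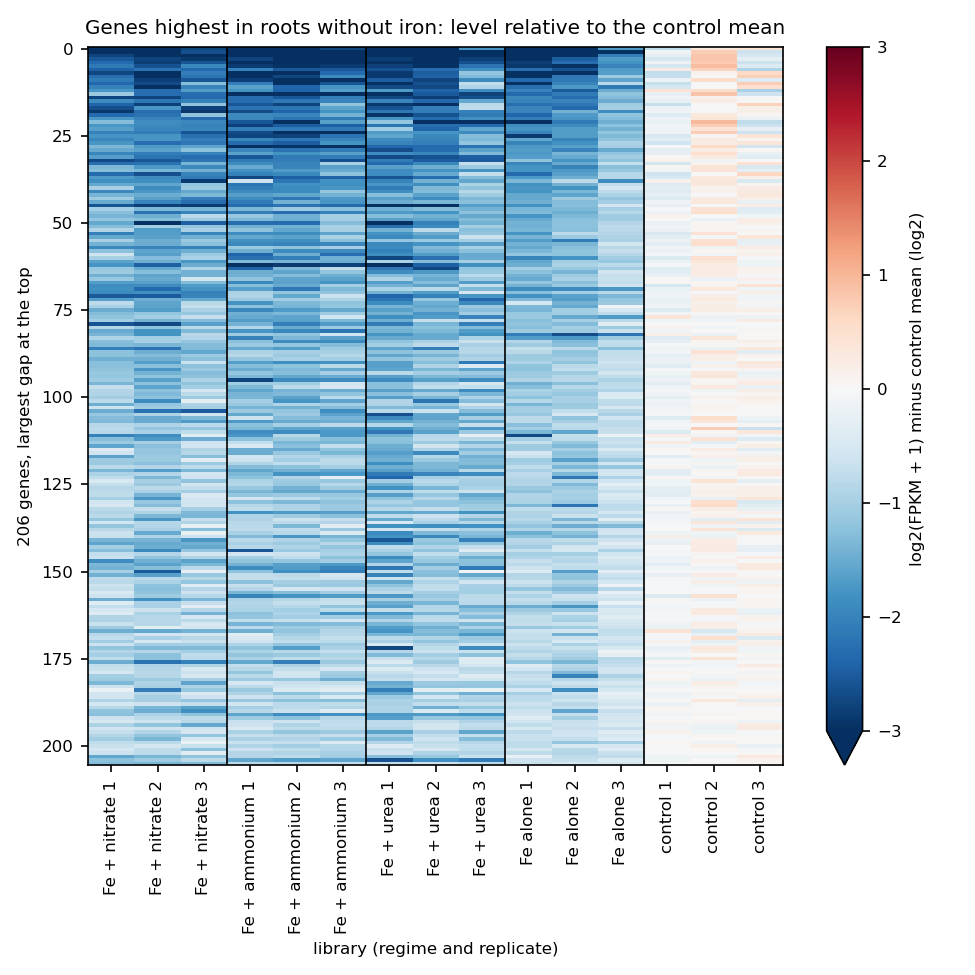
Level of each of the 206 genes (rows, ordered by gap) in each of the 15 libraries (columns), as log2(FPKM + 1) minus the control mean of the gene, with colours held at -3 and below. Every library with iron is blue in every row, the column of iron alone replicate 3 is the palest of them in many rows, and control replicate 1 lies below the control mean in most rows.

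The control libraries also differed among themselves. Control replicate 2 was the highest of the 3 in 104 members, replicate 3 in 86 and replicate 1 in 16, and replicate 1 was the lowest in 109. Since each member needed its lowest control library above all libraries with iron, control replicate 1 set that limit more often than the others. Without it, 289 genes met the rule. Without replicate 3 of iron alone, 267 did.

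The largest gap belonged to Solyc03g026280.3 on chromosome 3, at 3.15 on the log2 scale. It had 2.20, 0.541 and 2.99 FPKM with nitrate, 0, 1.11 and 3.07 FPKM with ammonium and 0.375, 1.47 and 6.92 FPKM with urea. It had 0.520, 1.18 and 7.28 FPKM with iron alone and 14.9, 33.3 and 34.7 FPKM in control. In each regime replicate 3 was the highest library, and the lowest control library was still above the highest library with iron. Within each regime with iron the libraries differed by more FPKM than the regime means did.

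Its neighbour in the order of identifiers, Solyc03g026270.3, had the second largest gap, 3.08. Its levels were 0.503, 0.486 and 1.36 FPKM with nitrate, 0, 0.116 and 0 FPKM with ammonium and 0.110, 0 and 0.109 FPKM with urea. Its levels were 0, 0 and 0.784 FPKM with iron alone and 12.5, 23.6 and 8.64 FPKM in control. The gene was listed at 0 in 5 libraries, all of them with iron, and was highest in control replicate 2. With nitrate it was above 0 in all libraries and held the highest value of any library with iron.

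Solyc12g017240 on chromosome 12 was the third, with a gap of 3.06. It had 3.66, 2.72 and 2.24 FPKM with nitrate, 0.387, 0.442 and 2.47 FPKM with ammonium and 1.03, 2.09 and 2.43 FPKM with urea. It had 2.00, 1.47 and 6.82 FPKM with iron alone and 25.8, 55.4 and 21.2 FPKM in control. Both lowest values were in ammonium replicates 1 and 2, and the highest library with iron was again replicate 3 of iron alone. Control replicate 2 stood well above the other control libraries.

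Solyc11g012980.1 on chromosome 11 had a gap of 2.42. It had 1.80, 1.41 and 1.22 FPKM with nitrate, 1.42, 0.207 and 0.811 FPKM with ammonium and 1.28, 1.08 and 1.36 FPKM with urea. It had 0.977, 1.94 and 4.05 FPKM with iron alone and 10.5, 28.1 and 12.4 FPKM in control. The regimes with iron overlapped throughout, and control replicate 2 was again the highest of all libraries.

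A pair of members was close to absent wherever iron was given. Solyc03g124110.2 was listed at 0 in 3 libraries with iron and did not exceed 1.05 FPKM in the others, against 4.44, 14.0 and 4.93 FPKM in control. Solyc01g079660.2 was listed at 0 in 2 libraries with iron and did not exceed 0.867 FPKM in the others, against 6.18, 8.83 and 2.18 FPKM in control. For both, the control libraries were low too, and the highest of them was replicate 2.

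Solyc07g040960.1 on chromosome 7 was different in that urea was the regime nearest to control, with a gap of 2.17. It had 10.2, 4.31 and 16.7 FPKM with nitrate, 5.15, 3.96 and 13.6 FPKM with ammonium and 9.16, 12.3 and 31.7 FPKM with urea. It had 4.42, 6.55 and 22.5 FPKM with iron alone and 43.6, 80.3 and 110.5 FPKM in control. In each regime the third replicate was the highest, and the regimes with iron overlapped.

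Solyc01g091590 on chromosome 1 also had replicate 3 as the highest library of each regime. Its levels were 6.65, 3.39 and 7.19 FPKM with nitrate, 3.43, 4.62 and 8.98 FPKM with ammonium and 4.02, 5.89 and 13.8 FPKM with urea. Its levels were 3.78, 7.47 and 16.9 FPKM with iron alone and 21.6, 36.5 and 60.3 FPKM in control. The libraries with iron overlapped between regimes.

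**Figure D3:**
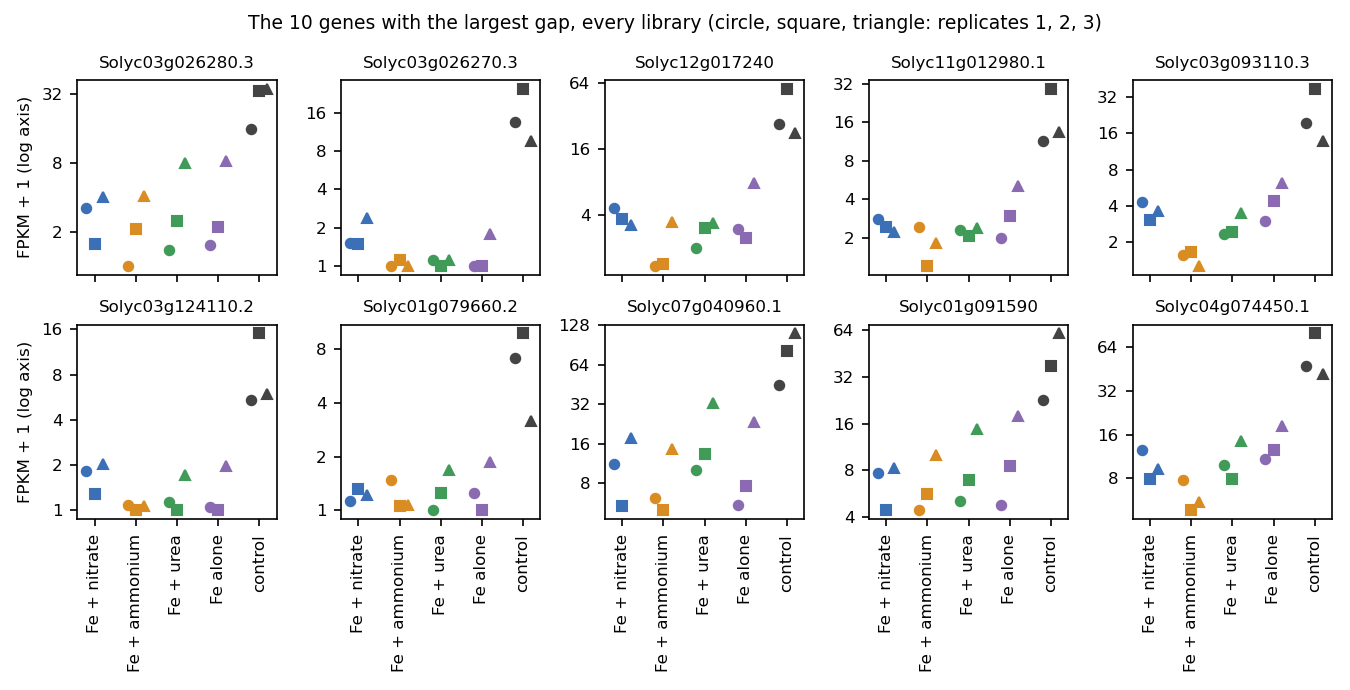
FPKM + 1 on a log axis (vertical, with its own range in each panel) for the 10 genes with the largest gap, in each library of the 5 regimes (horizontal, Fe for iron). Control libraries lie above all others in each panel, and in several panels, among them Solyc03g026280.3 and Solyc07g040960.1, the triangles of replicate 3 are the highest of their regime.

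The members with the highest level in control differed in how steady their libraries were. Solyc11g069735.1 on chromosome 11 was the highest of all, with 635 ± 57.1 FPKM in control (mean ± SD, n = 3). It had 242, 230.0 and 360.4 FPKM with nitrate, 288, 231 and 319 FPKM with ammonium and 259, 235 and 216 FPKM with urea. It had 185, 249 and 299 FPKM with iron alone and 696, 626 and 582 FPKM in control. The regimes with iron overlapped, and ammonium was the nearest to control with a gap of 1.19.

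Solyc01g103390 on chromosome 1 was the second in control level, and here the regimes with iron separated. It had 181, 142 and 229 FPKM with nitrate, 112, 125 and 118 FPKM with ammonium and 106, 117 and 89.7 FPKM with urea. It had 173, 161 and 177 FPKM with iron alone and 320.4, 307 and 377 FPKM in control. The urea libraries and the ammonium libraries all lay below the iron alone libraries, and the nitrate libraries overlapped with iron alone. Solyc01g103390 was lower with urea than with iron alone by -0.71 ± 0.15 (SE, adjusted p = 0.004) and higher with nitrate than with urea by 0.80 ± 0.15 (SE, adjusted p = 0.0016) on the log2 scale. Both calls held under all alternatives tried, with adjusted p between 0.0011 and 0.019 for the first and between 0.00026 and 0.031 for the second. Its fall with ammonium relative to iron alone, -0.53 ± 0.15 (SE, adjusted p = 0.029), lost its call without any 1 of 5 libraries (iron alone replicate 1, 2 or 3, or ammonium replicate 1 or 3; adjusted p between 0.051 and 0.097). It was also higher with nitrate than with ammonium by 0.61 ± 0.15 (SE, adjusted p = 0.021). That call was lost without nitrate replicate 1 (0.055) or 3 (0.079) or ammonium replicate 1 (0.082) or 3 (0.056), and when only those regimes were fitted (0.11).

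Solyc04g077980.1 on chromosome 4 was lowest with nitrate. It had 48.1, 38.0 and 59.5 FPKM with nitrate, 58.4, 62.3 and 102 FPKM with ammonium and 65.2, 84.0 and 146 FPKM with urea. It had 47.5, 76.7 and 132 FPKM with iron alone and 158, 239 and 368 FPKM in control. The libraries of a regime differed by a wide margin, replicate 3 being the highest in all 5 regimes. No comparison between regimes with iron passed the test, which holds no term for the replicate number. The fit with that number as a block is not given for this gene.

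Solyc07g053740.1 had 118 ± 1.35 FPKM with nitrate, 132 ± 24.9 FPKM with ammonium, 149 ± 59.2 FPKM with urea, 151 ± 27.4 FPKM with iron alone and 286 ± 61.3 FPKM in control (mean ± SD, n = 3 each). Solyc05g052550.1 had 53.3 ± 6.09 FPKM with nitrate, 49.1 ± 3.72 FPKM with ammonium, 61.7 ± 15.3 FPKM with urea, 69.1 ± 19.0 FPKM with iron alone and 207 ± 43.1 FPKM in control. Neither passed the test, which holds no term for the replicate number, in any comparison between regimes with iron. A close neighbour of Solyc05g052550.1 on chromosome 5, Solyc05g052570, was also a member, with 119 ± 19.0 FPKM in control and regime means between 26.2 and 32.9 FPKM with iron.

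Solyc05g011970 on chromosome 5 was nearest to control with ammonium. It had 69.2, 60.6 and 85.5 FPKM with nitrate, 113, 108 and 128 FPKM with ammonium and 46.5, 76.3 and 64.9 FPKM with urea. It had 102, 82.3 and 120.1 FPKM with iron alone and 159, 220.5 and 191 FPKM in control. All ammonium libraries were above all nitrate and urea libraries. It was higher with ammonium than with urea by 0.91 ± 0.19 (SE, adjusted p = 0.0081), a call that held under all alternatives tried (adjusted p between 0.0061 and 0.041). It was lower with nitrate than with ammonium by -0.70 ± 0.19 (SE, adjusted p = 0.04), a call lost without any 1 of 8 libraries, control replicate 3 among them (adjusted p between 0.052 and 0.14), and lower with urea than with iron alone by -0.70 ± 0.19 (SE, adjusted p = 0.02), a call lost without iron alone replicate 1 (0.054) or 3 (0.084) or urea replicate 1 (0.09) and when only those regimes were fitted (0.07).

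Members were spread over all 12 chromosomes, with the chromosome read from the identifier. Chromosome 3 held 33 of them, or 2.27% of its kept genes, and the share on the others lay between 0.98% and 1.65%. Of the 206 members, 22 stood directly next to another member in the order of identifiers, and 39 lay in 16 runs of members no more than 10 identifiers apart. The order is that of the 34075 genes listed, and numbers skipped between their identifiers were not counted. Neighbouring identifiers can be similar copies that share reads, which was not analysed here.

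A run of 4 members on chromosome 3 filled 4 identifiers that are consecutive among the genes listed, though not by number. All 4 had their lowest mean with ammonium. Solyc03g093130 had 14.6, 11.1 and 12.4 FPKM with nitrate, 3.42, 4.20 and 3.93 FPKM with ammonium and 6.58, 7.01 and 7.54 FPKM with urea. It had 10.9, 11.8 and 18.5 FPKM with iron alone and 37.1, 59.4 and 26.2 FPKM in control. The ammonium libraries were the lowest, the urea libraries lay between them and the other regimes with iron, and the nitrate and iron alone libraries overlapped. Solyc03g093130 fell with ammonium relative to iron alone by -1.57 ± 0.24 (SE, adjusted p = 0.001) and was higher with nitrate than with ammonium by 1.49 ± 0.24 (SE, adjusted p = 0.0016) on the log2 scale. These calls held under all alternatives tried, with adjusted p between 0.00025 and 0.0088 and between 0.00033 and 0.011. Its fall with urea relative to iron alone, -0.84 ± 0.24 (SE, adjusted p = 0.026), was lost without iron alone replicate 3 (0.11), urea replicate 1 (0.083) or urea replicate 2 (0.064). It was also higher with nitrate than with urea by 0.76 ± 0.24 (SE, adjusted p = 0.04). That call was lost with size factors (0.054), with the replicate number as a block (0.056) and without several single libraries.

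Solyc03g093110.3 had the same order of regimes at lower levels. It had 3.31, 2.05 and 2.65 FPKM with nitrate, 0.573, 0.659 and 0.277 FPKM with ammonium and 1.35, 1.46 and 2.48 FPKM with urea. It had 2.02, 3.41 and 5.26 FPKM with iron alone and 18.5, 36.4 and 12.8 FPKM in control. All ammonium libraries lay below all other libraries. It fell with ammonium relative to iron alone by -1.55 ± 0.33 (SE, adjusted p = 0.0079), a call that held under all alternatives tried (adjusted p between 0.0017 and 0.035). It was higher with nitrate than with ammonium by 1.28 ± 0.33 (SE, adjusted p = 0.033), a call lost without any 1 of nitrate replicates 1 and 3 and ammonium replicates 1, 2 and 3 (adjusted p between 0.064 and 0.11).

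Solyc03g093080 had 12.5, 4.98 and 4.98 FPKM with nitrate, 0.855, 2.33 and 2.30 FPKM with ammonium, 2.60, 4.09 and 3.24 FPKM with urea, 4.81, 5.78 and 11.5 FPKM with iron alone and 23.7, 51.6 and 18 FPKM in control. Its fall with ammonium relative to iron alone, -1.53 ± 0.42 (SE, adjusted p = 0.028), was lost without iron alone replicate 3 (0.1) or ammonium replicate 1 (0.11) and when only those regimes were fitted (0.05). It was also higher with nitrate than with ammonium by 1.52 ± 0.42 (SE, adjusted p = 0.044). That call was lost with the replicate number as a block (0.062), when only those regimes were fitted (0.091) and without many single libraries (0.17 without ammonium replicate 1). Solyc03g093120.5 had 1.31, 1.05 and 0.926 FPKM with nitrate, 0.107, 0.401 and 0.422 FPKM with ammonium, 0.691, 0.608 and 0.544 FPKM with urea, 1.14, 1.10 and 2.29 FPKM with iron alone and 6.32, 11.8 and 3.97 FPKM in control. Its fall with ammonium relative to iron alone, -0.91 ± 0.28 (SE, adjusted p = 0.048), was lost without any 1 of 13 libraries and reached an adjusted p of 0.17 without iron alone replicate 3. It was also lost with size factors (0.053), with the replicate number as a block (0.065) and when only those regimes were fitted (0.077). In both genes the ammonium libraries were the lowest, and in all 4 genes of the run control replicate 2 was the highest library.

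In a second run of 4 identifiers on chromosome 3, again consecutive among the genes listed but not by number, Solyc03g093560.1 was the highest in control. It had 39.2, 39.9 and 72.7 FPKM with nitrate, 51.4, 47.3 and 97.3 FPKM with ammonium and 37.6, 49.4 and 119 FPKM with urea. It had 48.6, 66.6 and 116 FPKM with iron alone and 132, 206 and 262 FPKM in control. Its neighbour Solyc03g093550.1 had 19.8, 32.7 and 53.5 FPKM in control and did not exceed 18.2 FPKM with iron. In both genes replicate 3 was the highest library of all 5 regimes, and the regimes with iron overlapped. Solyc03g093540.1 had a gap of 1.92, with 11.4 ± 4.35 FPKM in control, and Solyc03g093610.1 had a gap of 1.15, with 59.3 ± 4.29 FPKM in control (mean ± SD, n = 3). None of the 4 passed the test, which holds no term for the replicate number, in a comparison between regimes with iron.

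On chromosome 8, 4 members lay within 9 identifiers, of which 5 were kept genes. Solyc08g068690.1 was the highest, with 87.4, 78.2 and 88.6 FPKM with nitrate, 87.5, 95.1 and 85.6 FPKM with ammonium, 96.3, 89.6 and 136 FPKM with urea, 89.0, 113 and 147 FPKM with iron alone and 207, 277 and 233 FPKM in control. Solyc08g068600 had 46.3 ± 10.7 FPKM in control and regime means between 10.2 and 13.7 FPKM with iron. Solyc08g068610 had 31.9 ± 8.51 FPKM in control and between 6.53 and 9.90 FPKM with iron. Solyc08g068680 had 43.4 ± 9.89 FPKM in control and between 13.4 and 19.9 FPKM with iron, and it was lower with nitrate than with urea by -0.53 ± 0.16 (SE, adjusted p = 0.035), a call lost without nitrate replicate 1 (0.075) or 3 (0.12) or urea replicate 1 (0.13) or 3 (0.097). The one kept gene among them that was no member, Solyc08g068660.1, had 5.09 ± 1.58 FPKM in control and means between 0.635 and 1.58 FPKM with iron, with overlapping libraries.

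On chromosome 4, 3 members lay within 5 identifiers. Solyc04g074450.1 had 11.5, 6.84 and 8.21 FPKM with nitrate, 6.80, 3.78 and 4.42 FPKM with ammonium and 8.85, 6.90 and 13.5 FPKM with urea. It had 9.79, 11.5 and 17.3 FPKM with iron alone and 46.8, 79.1 and 40.9 FPKM in control. Solyc04g074410 had 12.4 ± 5.00 FPKM with nitrate, 9.43 ± 0.987 FPKM with ammonium, 14.4 ± 3.28 FPKM with urea, 19.0 ± 4.90 FPKM with iron alone and 45.8 ± 15.7 FPKM in control (mean ± SD, n = 3 each). In both genes the ammonium mean was the lowest. Solyc04g074450.1 fell with ammonium relative to iron alone by -1.20 ± 0.30 (SE, adjusted p = 0.018), a call lost without iron alone replicate 3 (0.07) or ammonium replicate 2 (0.057) or 3 (0.06). Solyc04g074410 fell by -0.92 ± 0.27 (SE, adjusted p = 0.037), a call lost without any 1 of iron alone replicates 1 and 3 and ammonium replicates 1, 2 and 3 (adjusted p between 0.066 and 0.13) and with the replicate number as a block (0.053). Solyc04g074430 varied within regimes, with 0.668, 4.23 and 7.06 FPKM with iron alone and 18.2, 42.9 and 12.1 FPKM in control, and passed no test between regimes with iron. The genes between them, Solyc04g074420.1 and Solyc04g074440.1, had 6.09 ± 3.75 and 15.1 ± 7.03 FPKM in control, also their highest regime, but their control libraries were not all above the libraries with iron.

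**Figure D4:**
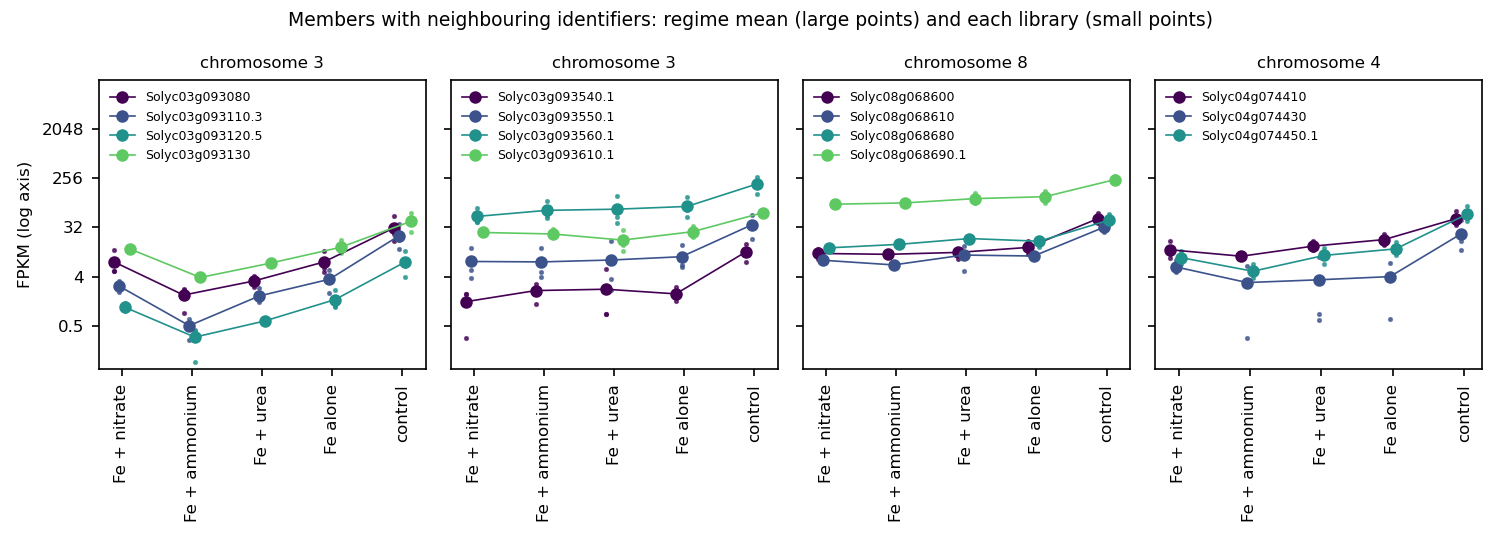
FPKM on a log axis (vertical) for the members of 4 runs of neighbouring identifiers, by regime (horizontal, Fe for iron); large points joined by lines are regime means and small points are single libraries. In the first run on chromosome 3 all 4 genes are lowest with ammonium, and in each run the control means are the highest.

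The regimes with iron were then compared with each other. The rule bounds the steps between them, since none may exceed the gap below control, but it does not use their direction. All 206 members were among the 18889 genes tested, which had at least 1 FPKM in at least 3 libraries; a gene high only in control could pass that filter through control. The spread of the 4 iron regime means had a median of 0.63 on the log2 scale over the members, between 0.07 and 2.03. Iron alone was the regime nearest to control in 119 members, against 35 for nitrate, 25 for ammonium and 27 for urea, and it was the lowest regime in 10, against 54 for nitrate, 72 for ammonium and 70 for urea. Without replicate 3 of iron alone, it was the nearest in 72 members, against 56 for nitrate, 31 for ammonium and 47 for urea, and the lowest in 36, against 48 for nitrate, 60 for ammonium and 62 for urea. In the kept genes that were no members, with all libraries, iron alone was the highest of the 4 regimes with iron in 34.3%. It was the lowest of them in 19.0%. Control had the highest mean in 3454 of the 13750 kept genes, so the 34.3% is not a share nearest to control. The lowest regime was nitrate in 26.2% of the members and 25.7% of these other genes, ammonium in 35.0% and 16.3%, and urea in 34% and 38.9%.

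With ammonium, 36 members fell and 1 rose relative to iron alone (limma, adjusted p under 0.05). Among all genes tested, 13.9% were called in this comparison, 7.58% falling and 6.29% rising, and 9.37% of the kept genes fell. The fall was at least 2-fold on the log2(FPKM + 1) scale in 13 of the 36. The median change of the members was -0.30, against -0.03 over all genes tested. Without replicate 3 of iron alone, 16 members fell and 2 rose, against 5.18% and 4.91% of all genes, and the median of the members was -0.15. The total of 37 calls also dropped to 24 without ammonium replicate 1 and to 21 without ammonium replicate 3.

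The largest fall with ammonium was in Solyc05g055220.1 on chromosome 5. It had 3.04, 1.51 and 3.86 FPKM with nitrate, 0.110, 0.869 and 0.971 FPKM with ammonium and 0.184, 1.50 and 2.81 FPKM with urea. It had 3.95, 6.07 and 6.92 FPKM with iron alone and 12.1, 15.0 and 11.2 FPKM in control. All ammonium libraries and all urea libraries were below all iron alone libraries, which in turn were below control. The change with ammonium was -2.03 ± 0.38 (SE, adjusted p = 0.0036) and passed under all alternatives that kept the gene (adjusted p between 0.0009 and 0.02). The filter at a mean of 5 FPKM or more over all libraries left this gene out, so it was not tested there. The change with urea was -1.54 ± 0.38 (SE, adjusted p = 0.012). Its adjusted p was 0.057 when only the regimes compared were fitted and between 0.0037 and 0.057 over the alternatives that kept the gene.

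Solyc03g121230 on chromosome 3 went the other way and was the only member that rose with ammonium. It had 12.8, 9.51 and 19.2 FPKM with nitrate, 16.3, 15.1 and 23.1 FPKM with ammonium and 9.55, 11.7 and 9.23 FPKM with urea. It had 7.57, 4.70 and 6.99 FPKM with iron alone and 40.6, 30.5 and 35.3 FPKM in control. Iron alone was its lowest regime, and the ammonium and nitrate libraries all lay above the iron alone libraries. It rose with ammonium by 1.37 ± 0.23 (SE, adjusted p = 0.0018), a call that held under all alternatives tried (adjusted p between 0.00073 and 0.016). It also rose with nitrate by 0.97 ± 0.23 (SE, adjusted p = 0.015), a call lost without iron alone replicate 2 (0.063) or nitrate replicate 3 (0.069) and when only those regimes were fitted (0.085). Between ammonium and urea it was higher with ammonium by 0.76 ± 0.23 (SE, adjusted p = 0.049). That call was lost under most alternatives, with an adjusted p of 0.17 without ammonium replicate 3.

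With nitrate, 26 members fell and 1 rose relative to iron alone. Among all genes tested, 11.7% were called, 7.08% falling and 4.58% rising, and 8.86% of the kept genes fell. The fall was at least 2-fold in 4 of the 26. The median change of the members was -0.20, against -0.05 over all genes tested. Without replicate 3 of iron alone, 12 members fell and 2 rose, against 4.96% and 4.15% of all genes, and the median of the members was -0.06. The total of 27 calls was 14 without nitrate replicate 2 and 16 without nitrate replicate 3. The share of the members that fell, 12.6%, was 5.83% once that iron alone library was left out, close to the share of all genes.

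Solyc02g088090.1 and Solyc02g032030.1, both on chromosome 2, had the largest falls with nitrate. Solyc02g088090.1 had 8.48, 7.17 and 6.78 FPKM with nitrate, 10.6, 11.2 and 10.5 FPKM with ammonium and 2.58, 3.94 and 17.1 FPKM with urea. It had 15.2, 22.3 and 37.1 FPKM with iron alone and 47.3, 56.3 and 65.9 FPKM in control. Urea replicate 3 stood well above the other urea libraries and overlapped with iron alone. Its change was -1.53 ± 0.45 (SE, adjusted p = 0.044) with nitrate, lost without any 1 of 11 libraries (0.15 without iron alone replicate 3) and with a pseudocount of 0.1 (0.054), and -1.83 ± 0.45 (SE, adjusted p = 0.012) with urea, lost without iron alone replicate 3 (0.056) or urea replicate 1 (0.059) or 2 (0.052) and when only those regimes were fitted (0.098).

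Solyc02g032030.1 was very even in control. It had 3.88, 3.48 and 8.54 FPKM with nitrate, 9.98, 6.06 and 7.96 FPKM with ammonium and 5.86, 10.4 and 5.96 FPKM with urea. It had 11.6, 10.9 and 21.7 FPKM with iron alone and 28.4, 28.1 and 28.5 FPKM in control. All nitrate libraries lay below the iron alone libraries, and iron alone replicate 3 stood above the other libraries of its regime. The change with nitrate was -1.34 ± 0.31 (SE, adjusted p = 0.012), lost without nitrate replicate 2 (0.052) and when only those regimes were fitted (0.079).

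With urea, 37 members fell and 1 rose relative to iron alone. Among all genes tested, 19.0% were called, 13.2% falling and 5.75% rising, and 16.3% of the kept genes fell, so the share of the members that fell, 18%, was near that of the kept genes. The fall was at least 2-fold in 10 of the 37. The median change of the members was -0.31, against -0.10 over all genes tested. Without replicate 3 of iron alone, 20 members fell and 1 rose, against 9.19% and 4.79% of all genes, and the median of the members was -0.14. The total of 38 calls was 20 without urea replicate 1. The comparisons with nitrate, ammonium and urea share the iron alone libraries, so their counts are not independent.

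Solyc10g081910 on chromosome 10 had the second largest fall with urea, after Solyc02g088090.1. It had 15.4, 17.4 and 21 FPKM with nitrate, 11.9, 11.0 and 11.8 FPKM with ammonium and 5.26, 9.67 and 7.86 FPKM with urea. It had 23.3, 22.5 and 27.8 FPKM with iron alone and 33.2, 37.7 and 41.1 FPKM in control. The iron alone libraries were the highest with iron, followed by nitrate, ammonium and urea, with no overlap between these regimes. It fell with urea by -1.60 ± 0.17 (SE, adjusted p = 2.9e-05) and with ammonium by -1.02 ± 0.17 (SE, adjusted p = 0.0016) relative to iron alone, and it was higher with nitrate than with urea by 1.16 ± 0.17 (SE, adjusted p = 0.00027). These 3 calls held under all alternatives tried, with adjusted p of at most 0.0041, 0.0088 and 0.015. Solyc10g081910 was also higher with ammonium than with urea by 0.58 ± 0.17 (SE, adjusted p = 0.041). That call was lost under several alternatives, with an adjusted p of 0.16 without urea replicate 1. The gene was not called between nitrate and iron alone or between nitrate and ammonium. It lay just inside the gap threshold, with iron alone the regime nearest to control.

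Solyc01g095630 on chromosome 1 was the only member that rose with urea relative to iron alone. It had 5.64, 3.72 and 5.95 FPKM with nitrate, 6.53, 4.39 and 8.22 FPKM with ammonium and 11.2, 12.4 and 8.28 FPKM with urea. It had 5.35, 5.32 and 6.08 FPKM with iron alone and 19.5, 28.6 and 20.8 FPKM in control. All urea libraries were above all libraries of the other regimes with iron. The rise was 0.81 ± 0.21 (SE, adjusted p = 0.018), lost without iron alone replicate 1 (0.053), urea replicate 1 (0.063) or urea replicate 2 (0.072). It was lower with nitrate than with urea by -0.93 ± 0.21 (SE, adjusted p = 0.0073), a call that held under all alternatives tried (adjusted p between 0.0038 and 0.035).

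**Figure D5:**
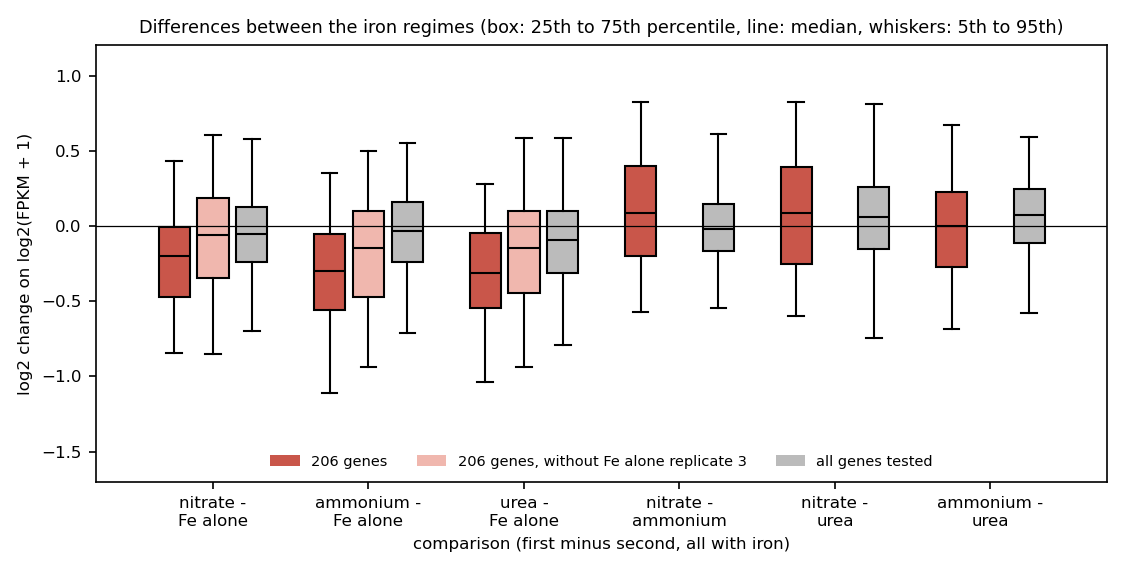
Log2 change between regimes with iron (vertical, first minus second on the log2(FPKM + 1) scale) for 6 comparisons (horizontal, Fe for iron), as boxes from the 25th to the 75th percentile with the median as a line and whiskers at the 5th and 95th. For the 206 genes the boxes against iron alone lie below 0 with medians of -0.20, -0.30 and -0.31, and the paler boxes without iron alone replicate 3 move up to -0.06, -0.15 and -0.14.

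The nitrogen forms were also compared with each other. Between nitrate and ammonium, 14 members were higher and 9 lower with nitrate (11.2% in either direction), against 3.38% higher and 3.67% lower among all genes tested (7.06% in either direction). This total of 23 calls was 11, 15 and 8 without nitrate replicate 1, 2 or 3, and 8, 10 and 9 without ammonium replicate 1, 2 or 3. Between nitrate and urea, 20 members were higher and 12 lower with nitrate (15.5% in either direction), against 11.3% and 8.31% of all genes (19.6% in either direction), and this total of 32 was 18 without nitrate replicate 3. Between ammonium and urea, 11 members were higher and 5 lower with ammonium (7.77% in either direction), against 7.09% and 3.97% of all genes (11.1% in either direction). This total of 16 was 7, 8 and 9 without ammonium replicate 1, 2 or 3, and 7 without urea replicate 1. Under size factors 18 members were higher and 16 lower with nitrate than with urea, and 6 were higher and 9 lower with ammonium than with urea. The shares of all genes called under size factors are not given here, so these counts cannot be read against them.

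Solyc12g005670.2 on chromosome 12 had some of the steadiest values and was lowest with nitrate. It had 60.5, 58.0 and 60.0 FPKM with nitrate, 85.5, 85.3 and 90.9 FPKM with ammonium and 91.8, 97.0 and 87.7 FPKM with urea. It had 95.2, 104 and 103 FPKM with iron alone and 151, 147 and 156 FPKM in control. All nitrate libraries lay below all other libraries. Relative to iron alone it fell with nitrate by -0.75 ± 0.06 (SE, adjusted p = 3.7e-06), and it was lower with nitrate than with ammonium by -0.54 ± 0.06 (SE, adjusted p = 8.3e-05) and than with urea by -0.62 ± 0.06 (SE, adjusted p = 7.7e-06). These 3 calls held under all alternatives tried, with adjusted p of at most 0.0022, 0.0064 and 0.002. It also fell with ammonium relative to iron alone, by -0.20 ± 0.06 (SE, adjusted p = 0.038). That call was lost with size factors (0.12), with the replicate number as a block (0.057), when only those regimes were fitted (0.14) and without several single libraries.

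Another 2 members are named here after their values were seen. Solyc09g091960 on chromosome 9 had 13.3, 16.8 and 13.9 FPKM with nitrate, 10.4, 8.42 and 8.72 FPKM with ammonium and 9.40, 9.44 and 8.81 FPKM with urea. It had 21.9, 20.3 and 21.7 FPKM with iron alone and 30.4, 35.0 and 34.3 FPKM in control. The iron alone libraries were the highest with iron, the nitrate libraries came next and the ammonium and urea libraries overlapped at the bottom. Relative to iron alone it fell with nitrate by -0.51 ± 0.10 (SE, adjusted p = 0.0047), with ammonium by -1.14 ± 0.10 (SE, adjusted p = 1.9e-05) and with urea by -1.13 ± 0.10 (SE, adjusted p = 7.9e-06), and these calls held under all alternatives tried (adjusted p of at most 0.04, 0.0033 and 0.001).

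Solyc10g083180 on chromosome 10 was highest with ammonium among the regimes with iron. It had 2.38, 2.46 and 3.87 FPKM with nitrate, 9.38, 5.69 and 11.5 FPKM with ammonium and 2.75, 3.81 and 4.80 FPKM with urea. It had 4.58, 5.36 and 6.64 FPKM with iron alone and 17.3, 21.5 and 17.1 FPKM in control. It was lower with nitrate than with ammonium by -1.31 ± 0.23 (SE, adjusted p = 0.0033), a call that held under all alternatives tried (adjusted p between 0.001 and 0.046). It was higher with ammonium than with urea by 1.02 ± 0.23 (SE, adjusted p = 0.014), a call lost without ammonium replicate 1 (0.055) or 3 (0.059) or urea replicate 1 (0.074) and when only those regimes were fitted (0.077).

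At the threshold of the gap, the members just inside were Solyc02g065520.1, Solyc10g081910 and Solyc12g005670.2, each with a gap of 0.59. Solyc02g065520.1 had 1.39 ± 0.277 FPKM with nitrate, 2.32 ± 0.307 FPKM with ammonium, 2.09 ± 0.723 FPKM with urea, 3.19 ± 0.975 FPKM with iron alone and 5.26 ± 1.15 FPKM in control. The genes just outside that met the other conditions were Solyc01g073720.2, Solyc07g053350 and Solyc05g011940, with gaps of 0.58 each. Solyc01g073720.2 had 65.1 ± 7.08 FPKM with nitrate, 63.9 ± 9.16 with ammonium, 63.6 ± 14.8 with urea, 62.0 ± 13.1 with iron alone and 98.7 ± 18.4 FPKM in control (mean ± SD, n = 3 each). Genes on either side of the threshold had similar distances from control.

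The least difference between regimes with iron was in Solyc04g015220 on chromosome 4, with a spread of 0.07. It had 44.0, 37.8 and 50.8 FPKM with nitrate, 39.7, 42.1 and 48.9 FPKM with ammonium and 52.1, 46.0 and 39.2 FPKM with urea. It had 47.1, 36.7 and 47.2 FPKM with iron alone and 71.1, 68.1 and 73.7 FPKM in control. All regimes with iron overlapped. Its direct neighbour Solyc04g015210 was also a member, with 94.9 ± 1.68 FPKM in control and regime means between 49.9 and 63.3 FPKM with iron.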

How the data were processed

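Gene expression was deposited by the authors as FPKM in 1 table of 34075 genes and 15 libraries, a unit taken from the name under which it was deposited. Alignment was done with HISAT2, per the submitters' processing notes; its version, the genome build and the program that computed FPKM are not given in the sources used here. FPKM corrects for transcript length and library depth but not for a shift in the make-up of the RNA, and the absolute depth is unknown. Libraries were assigned by column name and sample label, and 0 pairs of libraries were identical.

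The 18889 genes that reached 1 FPKM in 3 or more libraries were fitted as log2(FPKM + 1) with limma 3.58.1 in R 4.3.3, with a mean per regime over all 15 libraries and eBayes with a mean-variance trend. The tests were two-sided, with Benjamini-Hochberg adjustment over all genes tested within each of the 6 comparisons, and a gene was called at an adjusted p under 0.05. The model was tested on simulated data. The members and lists were chosen with earlier results of these data known. Named genes were the 10 members with the largest gap, the 8 highest in control, up to 2 called members with the largest rise and the largest fall for each nitrogen form against iron alone, up to 8 members next to another member, and the 3 genes on each side of the gap threshold. The other members of the 4 longest runs, close neighbours and 2 more members were named after their values were seen. So was Solyc04g015220, the member with the least difference between regimes with iron. Lists of iron genes and of root and leaf markers could not be matched, because the table holds no names and 0 of its identifiers matched the RefSeq annotation table at hand.

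As alternatives the pseudocount was set to 0.1, the filter was dropped or replaced by a mean of 5 FPKM or more, the values were rescaled by size factors or by quantiles, the trend was dropped, the fit was limited to the regimes compared, the replicate number entered as a block, and libraries were left out singly. Where a named call is said to be lost, the other filters, quantile normalization and the dropped trend were not searched for further losses. The order of the iron regimes without iron alone replicate 3 was added after the data had been seen.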

Additional observations from a re-analysis of the deposited data

How the results depend on the processing

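For the named changes between regimes and the median difference of iron alone from control, 705 alternative values stayed the same in call or size. Another 151 lost the call, and 0 reversed. For the named changes they cover the pseudocount of 0.1, size factors, the regimes compared alone, the replicate block and each library left out. The other filters, quantile normalization and the fit without the trend were not counted there. Leaving out a library of a regime outside a comparison keeps the change itself as it was, so such a value cannot reverse. Only its adjusted p can move, and such values are included in these counts. The median changes kept their sign except for ammonium against urea, which lay near 0. The rule gave 213 members with a pseudocount of 0.1, 194 with size factors and 204 with quantile normalization, but 118 with a mean of at least 20 FPKM and 75 with a gap of at least 1. In the order nitrate, ammonium and urea each against iron alone, then nitrate against ammonium, nitrate against urea and ammonium against urea, the members called were 10, 20, 23, 6, 19 and 6 without the filter. When only the regimes compared were fitted they were 15 for nitrate and 20 for urea against iron alone, 21 for nitrate against urea and 6 for ammonium against urea. With each library left out in turn, the rule gave 189 to 289 members, and the calls ranged over 14 to 30, 18 to 37, 20 to 42, 8 to 24, 18 to 37 and 7 to 16 in that order of comparisons. The medians ranged over -0.29 to -0.06, -0.39 to -0.15, -0.38 to -0.14, 0.06 to 0.18, 0.03 to 0.18 and -0.07 to 0.07. Fewer samples were fitted in these cases, and otherwise the cause was not tested. With the replicate number as a block the calls were 34, 36, 43, 23, 40 and 19. The shares of all genes called under these alternatives are not given, except without iron alone replicate 3 for the comparisons with iron alone. Over all genes tested, 3 of 30 correlations between the deviations of same-numbered libraries, which lay between -0.11 and 0.14, exceeded 0.1. The highest was between the replicates 3 of nitrate and ammonium. The numbers were therefore not taken to pair the libraries, although replicate 3 was high across regimes in a set of the members. This check was over all genes, so it does not decide whether the numbers pair the libraries for the members. The unknown depth allows no counting error, and 3 libraries per regime limit the precision of every change.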

Other observations

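The third libraries of the 5 regimes were high in a set of the members. Replicate 3 was the highest library of its regime in all 5 regimes in 18 of the 206 members (8.74%), against 140 of the 13544 other kept genes (1.03%). Replicate 1 was so in 0 members and in 71 of the other kept genes (0.524%), and replicate 2 in 0 members and in 23 (0.17%). In at least 4 of the 5 regimes replicate 3 was the highest in 48 members (23.3%) and in 6.95% of the other kept genes. The 18 members include Solyc03g026280.3, Solyc07g040960.1, Solyc01g091590, Solyc03g093550.1, Solyc03g093560.1 and Solyc04g077980.1. Nothing in the labels gives a batch, day or litter to the replicate numbers, and the fit with the replicate number as a block is among the alternatives.

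Relative to the mean of their own regime, 190 members were higher in iron alone replicate 3, with a median deviation of 0.27 on the log2 scale, and 131 were higher in urea replicate 3, with a median of 0.10. In ammonium replicate 3 it was 131 members with a median of 0.06, in nitrate replicate 3 it was 128 with a median of 0.06, and in control replicate 3 it was 122 with a median of 0.04.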
